A study of Mus musculus with 41 samples.

Results

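Cell division genes are transcribed mainly in cells that are about to divide, and their mRNA is low in a resting adult organ. Mki67 encodes the Ki-67 antigen, the usual marker of cycling cells, and Top2a encodes the topoisomerase that untangles sister DNA strands. Ccna2, Ccnb1 and Ccnb2 encode the A and B type cyclins that activate the mitotic kinases. Birc5 (survivin) and Aurkb (Aurora B) are subunits of the chromosomal passenger complex, Bub1 is a kinase of the spindle checkpoint, Plk1 is a kinase that drives entry into and passage through mitosis, and Cdc20 activates the ubiquitin ligase that ends it. The adult lung and liver normally renew their cells slowly.

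These 10 genes were followed in the lung and liver of mice that had inhaled nanosized titanium dioxide. They were the 10 gene names of the list among 27962 on the array, and they were read by 15 of its 41174 probes. RNA of 1 mouse, labelled with Cy5, was hybridized on each of 28 arrays together with a universal mouse reference RNA from cultured cell lines, labelled with Cy3, without a dye swap, and every value below is the log2 ratio of the mouse RNA over that reference unless another quantity is named. The reported probe of a gene was the one with the highest mean signal. A probe was called well above background by the scanner software.

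All mice were female C57BL/6 (C57BL/6BomTac in the study's methods) that had been time-mated and had not conceived, with an age given on the mRNA labels only as equivalent to gestation day 4. Exposed mice inhaled nanoTiO2 (surface-coated rutile, UV-Titan L181) at 40 mg/m3 for 1 hr per day on 11 days and control (air exposed) mice inhaled filtered air on the same schedule. Tissues were taken 5 days after the last exposure. Lung arrays came from 7 exposed and 6 control mice and liver arrays from 7 exposed and 8 control mice, and 6 exposed and 6 control mice gave both organs.

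The organs had their own markers. In control mice, 5 of 5 alveolar type 2 markers, 2 of 2 club cell markers and 4 of 4 endothelial markers were higher in lung than in liver and 4 of 4 hepatocyte markers were lower. Between 55.1% and 70.5% of the spots on an array were well above background in Cy5. Exposed mice always lay at slide positions 1 and 2 and control mice at 3 and 4, and these cannot be told apart. Lung slide 4 held 2 exposed mice and no control. Lung and liver arrays were read with different versions of the scanner software, so that organ and reading session cannot be told apart. In bulk tissue, fewer dividing cells and less RNA per cell cannot be told apart either.

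The 10 reported probes lie in the following places of the mm7 build, as the lung files give them. Mki67 was read at chromosome 7, 132094802 to 132094861, and Plk1 at chromosome 7, 118093971 to 118094030. Top2a was read at chromosome 11 between 99104969 and 99105783, Birc5 at chromosome 11, 117964690 to 117964749, and Aurkb at chromosome 11, 69133109 to 69133168. Ccna2 was read at chromosome 3, 36375837 to 36375896, Ccnb1 at chromosome 13, 97885282 to 97885341, and Ccnb2 at chromosome 9, 70439814 to 70439873. Bub1 was read at chromosome 2, 127542105 to 127542164, and Cdc20 at chromosome 4, 117809370 to 117809429. Each probe was 60 bases long, and exon and UTR annotation of this build was not used here.

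Top2a had 3 probes, of which 2 were designed to the same RefSeq transcript and lie on the minus strand of chromosome 11 from 99104969 to 99105783 and from 99124086 to 99125113. Their genomic spans of 815 and 1028 bases exceed the probe length, so that each probe crosses an intron. They are shown because the same gene gave a clear signal with the first and almost none with the second.
A_51_P252157: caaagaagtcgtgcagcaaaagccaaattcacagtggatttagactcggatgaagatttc
A_52_P415299: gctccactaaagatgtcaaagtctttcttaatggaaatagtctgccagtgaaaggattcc
The first was well above background in Cy5 on 7 of 7 exposed and 6 of 6 control lung arrays and on all liver arrays. The second was well above background on none of the lung arrays, on 1 of 8 control liver arrays and on 0 of 7 exposed liver arrays. The third Top2a probe, named after another transcript, was well above background on no array, and both gave ratios set by background.

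Genes of mitosis commonly carry CCAAT boxes, which the factor NF-Y binds, and the cell cycle homology element TTTGAA close to their start sites. RefSeq promoters (GRCm38.p6) matched 8 of the 10 genes, and Ccna2 and Aurkb were not matched. In the 250 bases before the start, CCAAT on either strand (ATTGG on the other) was found in 7 of the 8 promoters and in 33.8% of all 32851 promoters. It was found in 60.2% of 93 promoters of the wider cell cycle lists described further on. TTTGAA on either strand (TTCAAA on the other) was found in 4 of the 8, namely those of Mki67, Top2a, Ccnb2 and Cdc20, and in 16% of all promoters. Among the 93 promoters of the wider lists it was found in 22.6%. No match of one motif in the 8 promoters overlapped a match of the other. The promoters of 4 genes that differ in these elements are shown for the 120 bases before the start, 5′ to 3′ on the strand of the gene, with both motifs in capitals. Top2a lies at chr11:99024190-99024309 on the minus strand, Ccnb2 at chr9:70421555-70421674 on the minus strand, Cdc20 at chr4:118437344-118437463 on the minus strand and Birc5 at chr11:117849117-117849236 on the plus strand.
Top2a: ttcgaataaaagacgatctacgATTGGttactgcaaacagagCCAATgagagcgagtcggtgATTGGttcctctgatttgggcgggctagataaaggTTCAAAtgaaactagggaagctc
Ccnb2: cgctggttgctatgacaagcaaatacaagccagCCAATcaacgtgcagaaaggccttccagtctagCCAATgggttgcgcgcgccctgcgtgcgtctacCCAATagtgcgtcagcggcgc
Cdc20: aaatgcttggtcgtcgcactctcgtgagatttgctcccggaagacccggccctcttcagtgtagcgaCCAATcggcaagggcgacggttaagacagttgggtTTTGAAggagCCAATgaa
Birc5: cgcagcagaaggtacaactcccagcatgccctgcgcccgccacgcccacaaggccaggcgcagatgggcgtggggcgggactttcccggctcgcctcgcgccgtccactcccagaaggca
Top2a and Ccnb2 each show 3 CCAAT boxes in this window and Cdc20 shows 2, while Birc5 shows neither motif. A match describes the letters only.

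The first question was whether inhaled nanoTiO2 changed cell division genes in the lung. None of the 15 probes passed an adjusted p of 0.05 from limma, beside 0.221% of all 41172 probes tested, 0.199% called higher and 0.0219% called lower. The mean was higher in exposed mice for 9 of the 10 genes, with Bub1 the exception, beside 50.7% of all probes. The median difference over the 10 genes was 0.10 on the log2 scale, from -0.15 for Bub1 to 0.26 for Birc5, and the median over all probes was 0.0013. The median of the 10 genes was 0.33 with the background model fitted on all spots, 0.22 from signals as processed by the scanner and 0.19 with median centering, without a call in any of them. At an unadjusted p of 0.05 only Birc5 stood out, 1 of 10 genes beside 7.07% of all probes. Without these changes of processing, the 95% intervals of the single genes ran from -0.46 to 0.51, or from 1.37-fold lower to 1.43-fold higher in exposed mice. They do not cover the processing, as Aurkb differed by 0.80 with the background model fitted on all spots.

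**Figure D1:**
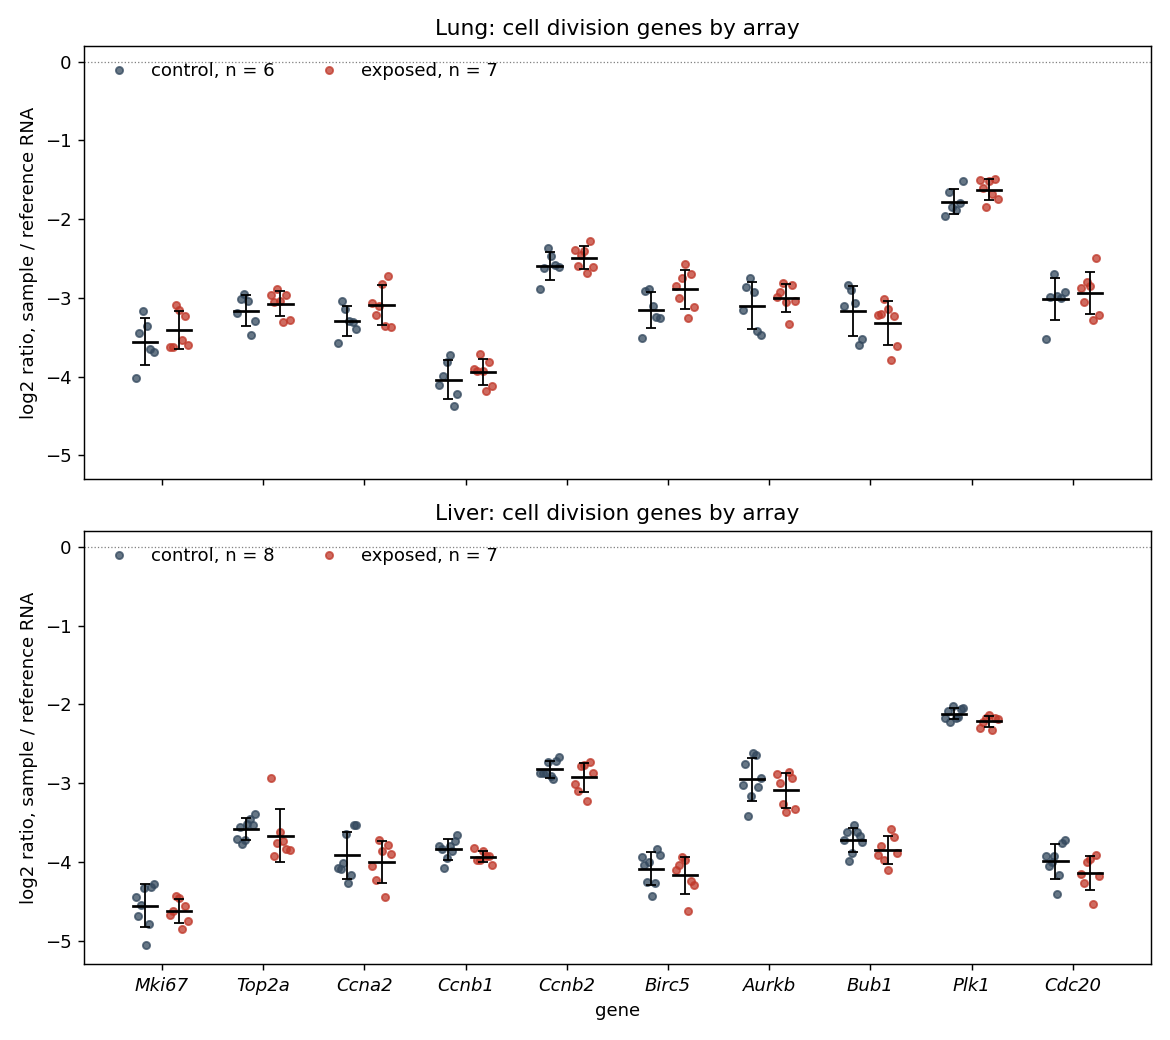
Log2 ratio of mouse RNA over reference RNA (y axis) of the 10 genes (x axis) on each lung array (upper panel) and liver array (lower panel), control mice in dark blue and exposed mice in red, with horizontal bars at the means and error bars of 1 SD. In the lung 9 of the 10 exposed means and in the liver none lie above the control mean, and the points of both groups overlap for every gene.

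Birc5, which links the passenger complex to centromeres, had the largest lung difference. Its log2 ratio ran from -3.50 over a median of -3.17 to -2.89 in control lungs and from -3.26 over -2.85 to -2.57 in exposed lungs. Exposed mice were higher by 0.26 (SE 0.12, 1.20-fold, 95% interval 1.00 to 1.43, adjusted p = 0.699 from limma and p = 0.0781 in an exact two-sided permutation test). The groups overlapped, although 4 of 7 exposed mice exceeded every control mouse. Its partner Aurkb, the kinase of the complex, ran from -3.48 to -2.75 in control and from -3.33 to -2.81 in exposed lungs and differed by 0.10 (SE 0.12). No exposed mouse exceeded every control mouse for Aurkb.

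Plk1 had the tightest values of the set. It ran from -1.96 over -1.82 to -1.52 in control and from -1.85 over -1.61 to -1.49 in exposed lungs. The difference was 0.15 (SE 0.08, adjusted p = 0.719 from limma), with 6 of 7 exposed mice above the control mean, and the exact two-sided permutation p was 0.0962. Ccna2, the cyclin of S phase and early mitosis, ran from -3.58 over -3.30 to -3.05 in control and from -3.37 over -3.11 to -2.72 in exposed lungs. It differed by 0.20 (SE 0.11, adjusted p = 0.746 from limma), and the groups overlapped with 2 of 7 exposed mice above every control.

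The B type cyclins differed by 0.10 (SE 0.08) for Ccnb2 and by 0.10 (SE 0.10) for Ccnb1. Ccnb2 ran from -2.89 to -2.37 in control and from -2.69 to -2.27 in exposed lungs. For Ccnb1 the other 2 probes pointed the other way, with differences of -0.09 and -0.08, and they were well above background on only 3 and 4 of the 6 control lungs, against 7 and 6 of 7 exposed lungs. The 3 probes were designed to the same transcript, and none of them passed the test.

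Mki67, the marker of cycling cells, had 2 probes that were well above background on all 28 arrays. The reported probe ran from -4.02 over -3.55 to -3.17 in control and from -3.62 over -3.54 to -3.09 in exposed lungs, and it differed by 0.15 (SE 0.13, adjusted p = 0.838 from limma). The other probe differed by 0.11 (SE 0.12). The medians of control and exposed lungs were nearly equal for the reported probe, while its lowest value, that of control mouse 24, lay below those of all other mice.

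Top2a differed by 0.09 (SE 0.09) between -3.47 to -2.95 in control and -3.30 to -2.89 in exposed lungs. Cdc20 differed by 0.08 (SE 0.13) and ran from -3.52 over -2.98 to -2.70 in control and from -3.28 over -2.87 to -2.49 in exposed lungs. Its direction rested on the control mouse 24, without which the difference was -0.02. Bub1 was the gene with a lower mean in exposed lungs, by 0.15 (SE 0.15), with control values from -3.60 over -3.08 to -2.83 and exposed values from -3.79 over -3.22 to -3.02. None of these 3 differences exceeded the spread between mice, and their adjusted p from limma lay between 0.859 and 0.923.

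Lung slide moved with several members. The mean Bub1 ratio of control mice was -2.97 on slide 1, -2.98 on slide 2 and -3.56 on slide 3, and Aurkb was -3.01, -2.84 and -3.45 on the same slides. In exposed mice Bub1 was -3.21, -3.02, -3.42 and -3.47 on slides 1 to 4. Compared within a slide, exposed mice were higher for 9 of 10 genes on slide 1 (2 exposed and 2 control mice), for 8 of 10 on slide 2 (1 and 2 mice) and for 10 of 10 on slide 3 (2 and 2 mice), with median differences of 0.15, 0.05 and 0.26. When slide entered the fit as a fixed block, the median over the 10 genes was 0.17 and no gene passed the test, with a lowest adjusted p of 0.487 from limma. Slide 4 held no control, so that its exposed mice 20 and 23 added nothing to the differences of this fit. Mouse 23 was among the 3 lowest lungs for 7 genes and mouse 20 among the 3 highest for 3. Unadjusted p values under 0.05 from limma were then reached by 4 of 10 genes, beside 8.73% of all probes in the same fit. Their log2 differences were 0.19 for Ccnb1, 0.22 for Aurkb, 0.30 for Birc5 and 0.16 for Top2a. With slide as a random block the median was 0.13, and no gene passed the test.

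The members moved together from mouse to mouse in the lung. As deviations from the group mean over 13 arrays, the correlation of a gene with the mean of the other 9 was between 0.74 and 0.93 for 9 genes and 0.12 for Plk1, with a median of 0.79. Control mouse 24 had the lowest value of all 13 lungs for 6 of the 10 genes, and exposed mouse 13 had the highest for 4 and exposed mouse 12 for 3. Control mouse 27 was among the 3 highest for 7 genes, so that high mice occurred in both groups. Among 16036 other gene names with a probe well above background on every lung array, the 5 most like the mean of the members were 4833432M17Rik (now Nsl1, a kinetochore protein) with a Pearson correlation of 0.971, Sgol1 (shugoshin, a guardian of centromere cohesion) with 0.965, Nusap1 (a spindle microtubule protein) with 0.963, Kif20a (a cytokinesis kinesin) with 0.957 and Ect2 (a cytokinesis regulator) with 0.949. The arrays share slides and the reference RNA, and these correlations describe the 13 arrays.

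**Figure D2:**
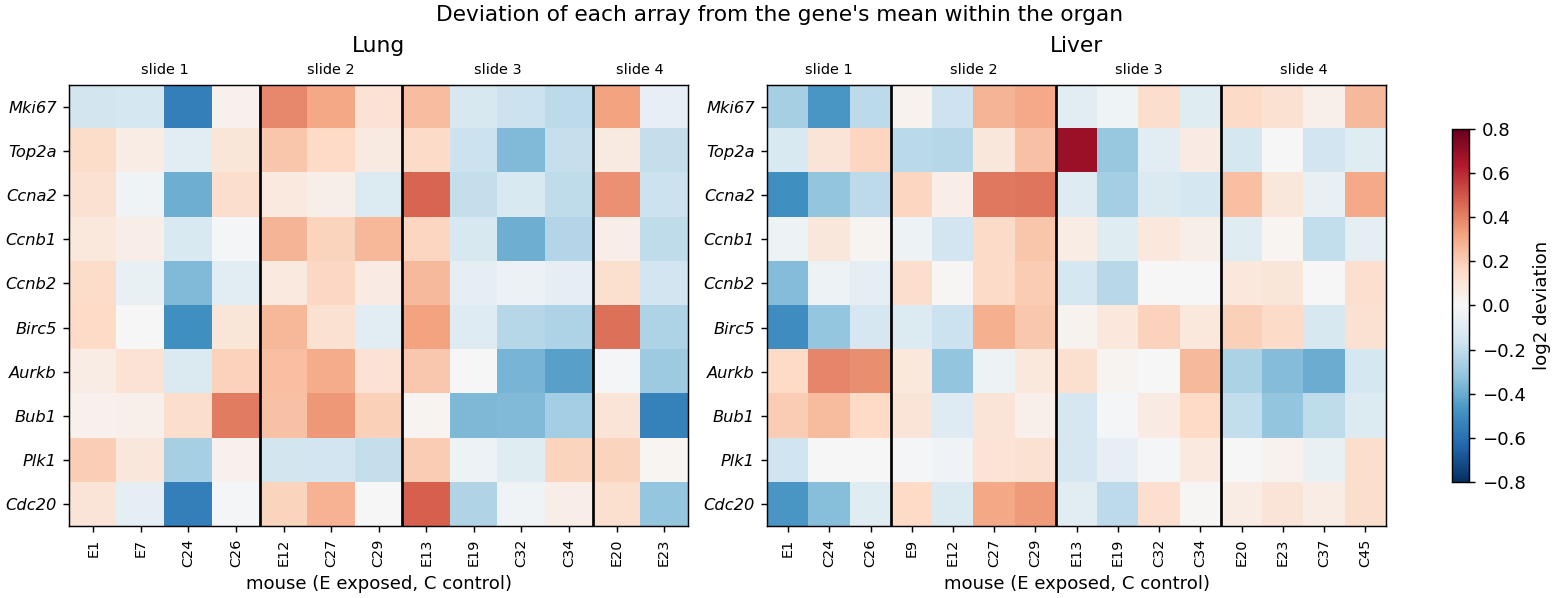
Deviation of each array (columns, grouped by slide, E for exposed and C for control with the mouse number) from the gene's mean over all arrays of that organ (rows, genes), in log2 units from -0.8 in blue to 0.8 in red. Most of a column shares a color in the lung, such as control mouse 24 in blue except for Bub1 and exposed mouse 12 in red except for Plk1, and in the liver Aurkb and Bub1 run apart from the other genes.

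In the liver the comparison asked whether the same genes changed in an organ away from the airways. None of the 15 probes passed an adjusted p of 0.05, and neither did any of the 41174 probes tested, which makes the share called 0%. At an unadjusted p of 0.05 Plk1 alone stood out, 1 of 10 genes beside 2.53% of all probes. All 10 genes had a lower mean in exposed than in control livers, beside 48.6% of all probes with a higher one, by -0.15 for Cdc20 to -0.06 for Mki67 with a median of -0.10. That direction held with the deposited table and without background correction, but 9 of the 10 genes turned to a higher mean in exposed livers when the arrays were centred on their median instead of by loess, with a median of 0.08.

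Plk1 ran from -2.22 over -2.13 to -2.02 in control and from -2.32 over -2.19 to -2.13 in exposed livers. Exposed mice were lower by 0.10 (SE 0.04, 1.07-fold, adjusted p = 1.00 from limma, and p = 0.0225 in an exact two-sided permutation test), with 3 of 7 exposed mice below every control and 0 above the control mean. Cdc20, the activator of mitotic exit, ran from -4.41 over -3.97 to -3.73 in control and from -4.53 over -4.15 to -3.91 in exposed livers, a difference of -0.15 (SE 0.10). The groups overlapped for both genes.

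The cyclins lay close together in both groups. Ccna2 ran from -4.27 over -4.05 to -3.53 in control and from -4.45 over -3.91 to -3.72 in exposed livers, so that the mean fell short of the control mean by 0.08 while the median was higher. Ccnb1 differed by -0.09 (SE 0.06) and Ccnb2 by -0.10 (SE 0.07). For Ccnb2, 3 of 7 exposed mice were below every control mouse.

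Mki67 differed by -0.06 (SE 0.11) between -5.05 to -4.28 in control and -4.85 to -4.43 in exposed livers, and its other probe by -0.14 (SE 0.07). Birc5 differed by -0.09 (SE 0.11), with values from -4.44 to -3.84 in control and from -4.62 to -3.94 in exposed livers. Top2a differed by -0.08 (SE 0.12), and its exposed values ran from -3.92 over -3.76 to -2.93, the last being mouse 13, which stood apart from the next at -3.61. Without this mouse the difference was -0.21 (unadjusted p = 0.00721 and adjusted p = 1.00 from limma), and Top2a did not pass the test either way.

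Aurkb and Bub1 could not be followed in the liver. Aurkb was well above background on 1 of 8 control and 1 of 7 exposed livers and Bub1 on none of 15, so that the liver means of Aurkb (-2.95 in control and -3.09 in exposed) and of Bub1 (-3.72 and -3.85) were set largely by background. Over the 15 liver arrays the correlation of Aurkb and Bub1 with the mean of the other 9 genes was -0.27 and -0.31, Top2a had 0.16 and the remaining genes had 0.57 to 0.73. Control mouse 29 had the highest value for 5 of the 10 genes and exposed mouse 1 the lowest for 5. Within slides, exposed livers were lower for 9, 10, 9 and 5 of 10 genes on slides 1 to 4. The 5 gene names most like the members' mean in the liver, among 14846, were 1190002F15Rik (now Lockd, a long noncoding RNA beside the gene of p27) with a Pearson correlation of 0.923, Anxa2 with 0.919, D17H6S56E-5 with 0.910, Kif4 (a chromosome kinesin) with 0.908 and Shcbp1 with 0.872.

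**Figure D3:**
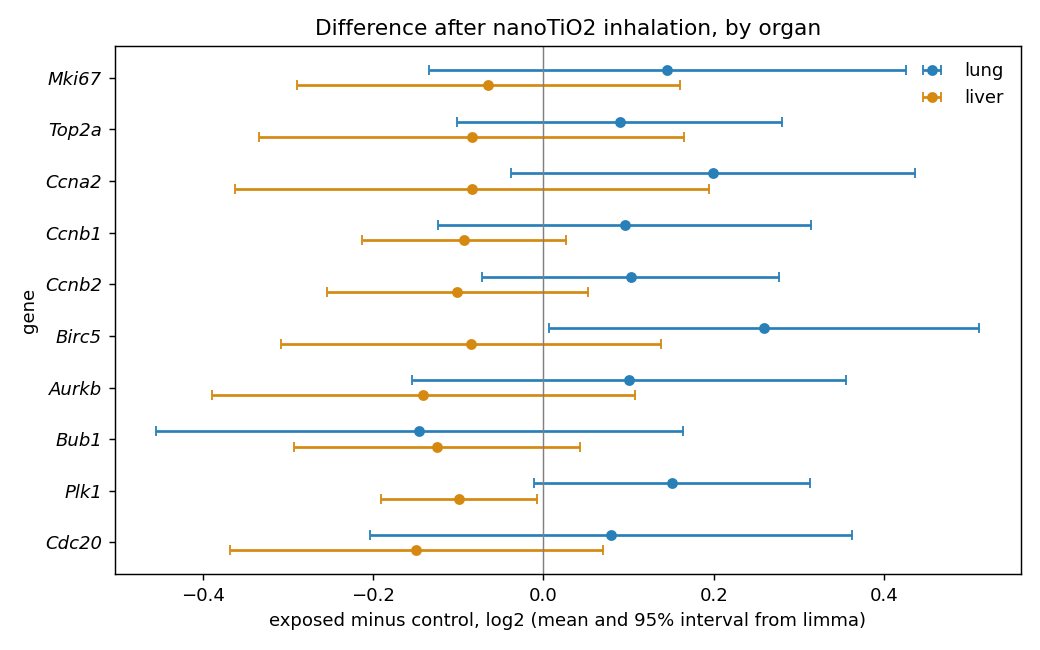
Exposed minus control difference in log2 units (x axis) of each of the 10 genes (y axis), with the mean and the 95% interval from limma, for lung (blue) and liver (orange). Of the lung intervals only that of Birc5 and of the liver intervals only that of Plk1 leaves out 0, before any adjustment for the number of probes.

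The exposure effects of the organs were then set against each other in 1 fit over the 28 arrays. The lung effect exceeded the liver effect for 9 of the 10 genes, with a median of 0.22 and 95% intervals between -0.36 and 0.68, beside 51% of all probes. None of the 15 probes passed an adjusted p of 0.05, beside 0.141% of all probes, 0.129% called higher and 0.0121% called lower. At an unadjusted p of 0.05, Plk1 and Birc5 stood out, 2 of 10 genes beside 4.39% of all probes. Plk1 had a lung effect higher by 0.25 (SE 0.09, adjusted p = 0.797 from limma) and Birc5 by 0.34 (SE 0.17, adjusted p = 1.00). Bub1 was the exception at -0.02 (SE 0.17). The 10 genes include Bub1 and Aurkb (0.24, SE 0.18), whose liver values were set largely by background.

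Control lungs and control livers differed clearly in these genes. Of the 10 genes 8 were higher in lung at an adjusted p of 0.05 from limma, beside 29.7% of all probes called higher in lung, 28.5% called lower and 58.2% called in either direction. At an unadjusted p of 0.05, 9 of 10 genes stood out beside 61.3% of all probes, and 8 of 10 had a higher mean in lung beside 46.8%. Mki67 was 2.00-fold higher in lung (95% interval 1.64 to 2.45, adjusted p = 5.86e-06), Cdc20 1.97-fold (1.66 to 2.35, adjusted p = 1.32e-06) and Birc5 1.91-fold (1.63 to 2.24, adjusted p = 7.04e-07). For these 3 genes and for Plk1, the 6 lung and 8 liver values did not overlap. Such separation was not counted over all probes, of which 58.2% were called here, so that it does not set these genes apart. In each of these 4 genes the exact two-sided permutation p was 0.000333, the smallest it can give.

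Ccna2 was 1.54-fold higher in lung (1.28 to 1.85), Top2a 1.34-fold (1.18 to 1.51), Plk1 1.27-fold (1.15 to 1.39) and Ccnb2 1.18-fold (1.06 to 1.31). Bub1 was well above background on 6 of 6 control lungs and on none of 8 control livers. Its log2 ratio was higher in lung by 0.55 (SE 0.11, adjusted p = 4.80e-04 from limma). No fold is given for it, because its liver ratios were set largely by background. Its mean log2 Cy5 signal after loess and Aquantile, open to dye bias, was 6.74 in control lung and 6.15 in control liver. A bound was also taken on this signal, against the lowest signal among probes well above background on each liver array. For Bub1 this bound equalled the difference of the means, so that no lower limit is drawn from it. Ccnb1 was 1.15-fold lower in lung and did not pass the test (adjusted p = 0.0808 from limma). The fit that kept lung and liver of the same mouse as a block called it lower in lung by 0.26 (adjusted p = 0.0136 from limma). That fit also left out control livers 37 and 45, which had no lung array. Ccnb1 was called lower by 0.34 in the authors' table and by 0.27 without background correction. It was also called when control lung 27 (-0.25), control lung 29 (-0.26) or control liver 37 (-0.23) was left out. Its mean log2 Cy5 signal after loess and Aquantile pointed the other way, with 6.86 in control lung and 6.79 in control liver. No direction was therefore drawn for Ccnb1. The genes called higher in lung kept a higher Cy5 mean there, but some differed less than by the ratio. In control lung and liver these means were 10.12 and 10.07 for Ccnb2, 6.75 and 6.60 for Top2a, and 8.60 and 8.14 for Ccna2. Mki67, Birc5, Plk1 and Cdc20 did not differ less by this signal. Aurkb was not called (adjusted p = 0.382 from limma), and no fold is given for it because 1 of 8 control livers was well above background. A second Ccnb1 probe was called lower in lung, by 0.41 (SE 0.15, adjusted p = 0.0267 from limma). This probe was well above background on 4 of 6 control lungs and on none of 8 control livers. Its mean Cy5 signal was at least 1.11-fold higher in lung by the bound described for Bub1, which has no interval. No direction was therefore drawn from this probe.

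The calls depended in part on the normalization. With arrays centred on their median instead of by loess, 5 of the 10 genes were called, Ccnb2 turned to -0.05 and Cdc20 (0.45) and Plk1 (0.16) were no longer called, while with the background model fitted on all spots 5 genes were called, Top2a (-0.16) and Bub1 (-0.14) turned and Ccna2 (0.20) was no longer called. Top2a (0.11) also lost its call with 1 value per gene name and Ccnb2 (0.15) with the scanner software's processed signals.

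The organs were also compared within the same animal. This reuses most control arrays of the comparison above, so that a like outcome is not a separate result. In each of the 12 mice with both organs, exposed and control, Mki67, Ccna2, Ccnb2, Birc5, Bub1, Plk1 and Cdc20 were higher in the lung. Such counts were not made over all probes, of which 58.2% were called between control organs. Mki67 was higher by 0.79 to 1.66 with a median of 1.09, Birc5 by 0.71 to 1.77 with a median of 0.94 and Cdc20 by 0.68 to 1.66. For Bub1 no liver value was well above background. Top2a was higher in the lung in 11 of 12 mice, the exception being an exposed mouse at -0.03. Ccnb1 was higher in the lung in 4 of 12 mice, all 4 of them exposed, whereas it was lower in the lung of 6 of 6 control mice. No count is given for Aurkb, whose liver signal was mostly at background.

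**Figure D4:**
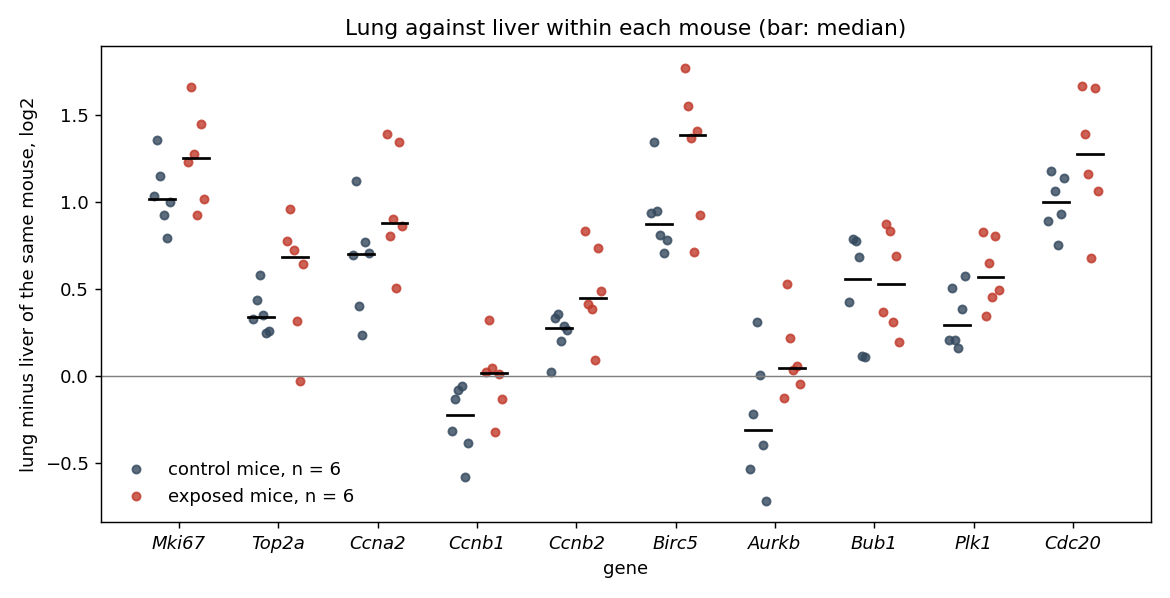
Lung minus liver log2 ratio of the same mouse (y axis) for each of the 10 genes (x axis), 6 control mice in dark blue and 6 exposed mice in red, with bars at the medians. Mki67, Birc5 and Cdc20 lie between 0.68 and 1.77 in every mouse. Ccnb1 lies below 0 in every control mouse (-0.58 to -0.06) and on both sides of 0 in exposed mice. Aurkb lies on both sides of 0 in both groups, with liver signals mostly at background.

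In all 4 groups the mean ratios of the 10 genes lay far below 0. They ran from -4.04 (Ccnb1) to -1.78 (Plk1) in control lungs, from -3.94 to -1.63 in exposed lungs, from -4.56 (Mki67) to -2.12 (Plk1) in control livers and from -4.62 to -2.22 in exposed livers. These are ratios to the reference and do not rank the genes by level. Turned around, the ratio of reference over sample was 11.7 for Mki67 in control lung and 23.5 in control liver, and 3.43 and 4.34 for Plk1. These are ratios after normexp with an offset and loess, without a dye swap, and not measured multiples of RNA. All 10 reported probes were well above background on every lung array and 8 of 10 on every liver array.

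The wider cell cycle lists showed the same absence of calls. Of 111 genes tested in 6 lists, none passed in lung or in liver. An unadjusted p under 0.05 from limma was reached by 8 in lung, beside 7.07% of all probes, and by 5 in liver, beside 2.53%. The median difference of the 111 genes was 0.03 in lung, with 71 above and 40 below 0, beside 50.7% of all probes above 0. In liver it was -0.06, with 23 above and 88 below, beside 48.6% above 0. Of 18 kinetochore and checkpoint genes, 17 had a higher mean in exposed lungs with a median of 0.09 and 17 a lower mean in exposed livers with a median of -0.10. Nek2, a kinase of centrosome separation, differed by 0.37 (SE 0.10) and Cdca5 (sororin, a cohesion protein) by 0.27 (SE 0.09) in lung, with adjusted p of 0.310 and 0.494 from limma, and the lowest were Ttk, which was well above background on 0 of 13 lung arrays, and Ndc80 at 0.01.

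Of 27 replication genes, 18 had a higher mean in exposed lungs, with a median of 0.04. Uhrf1, which reads newly copied DNA, differed by 0.26 and Pola1, a DNA polymerase, by 0.24, and Cdt1 and Chaf1b were lowest at -0.06 and -0.05. In 20 spindle and cytokinesis genes the median was 0.0039, from -0.17 for Smc4 to 0.11 for Kif23 and 0.13 for Kif20a. Hmmr, the second lowest, was well above background on 1 of 13 lung arrays. Among 19 genes of mitotic control Cks1b (0.18) and Melk (0.14) were highest and Cdc25a (-0.12) and Cdc25b (-0.10) lowest.

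The 12 genes of G1 entry were split evenly, 6 above and 6 below 0 in lung. Ccne1 (0.13) and Cdk4 (0.13) were highest and Cdk6 (-0.12) and E2f2 (-0.12) lowest. Among 15 cell cycle inhibitors, Btg1 (0.20) and Cdkn2c (0.18) were highest and Cdkn2b (-0.11) and Btg2 (-0.10) lowest. None of these values passed the test.

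**Figure D5:**
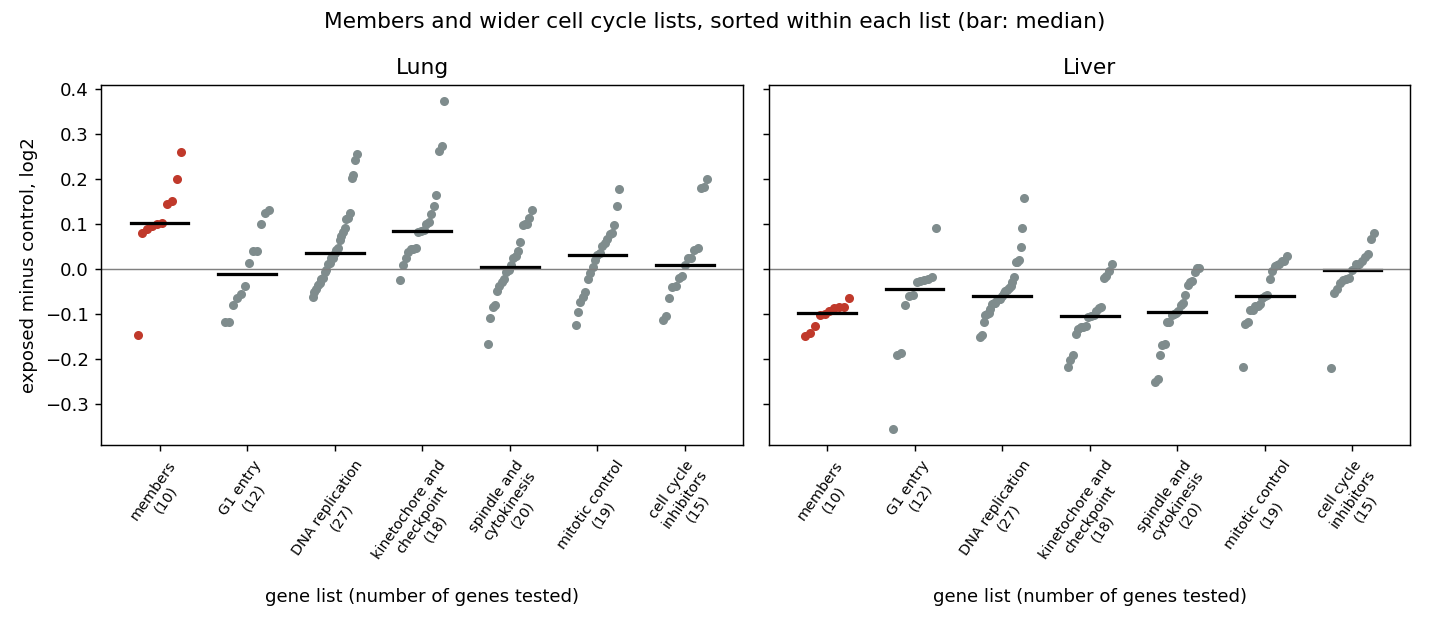
Exposed minus control difference in log2 units (y axis) for the 10 members (red) and the genes of 6 wider lists (grey), sorted within each list, in lung (left) and liver (right), with bars at the medians and the number of genes tested in brackets. The members' medians are 0.10 in lung and -0.10 in liver, and the medians of kinetochore and checkpoint genes are 0.09 and -0.10.

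Control lung and control liver differed in the wider lists without 1 direction. Of the 111 genes 44 were called higher and 31 lower in lung, with a median of 0.10. Over all probes 29.7% were called higher and 28.5% lower. Inhibitors were mostly higher in lung, 11 of 15, led by Cdkn2b (4.14), while Mcm10 (-3.52) and Cks2 (-2.05) were among the genes lower in lung.

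Markers of other cells were examined beside these genes. Of 6 macrophage markers, 1 (Marco, a scavenger receptor, 0.57, SE 0.09, adjusted p = 0.00940 from limma) rose in exposed lungs, and their mean log2 ratio ran from 2.06 to 2.37 in control and from 2.26 to 2.69 in exposed lungs. No gene of the other 10 marker lists passed in lung. The 3 megakaryocyte and platelet markers tested had lower means in exposed lungs (median -0.37, 2 with an unadjusted p under 0.05 from limma), and their mean log2 ratio ran from 1.47 to 2.13 in control and from 1.31 to 1.81 in exposed lungs. Of 5 neutrophil markers 4 had lower means (median -0.33), with a mean log2 ratio of 1.57 to 2.55 in control and 1.28 to 2.25 in exposed lungs. None of these 5 reached an unadjusted p under 0.05 from limma. The paper reports a higher share of neutrophils in the lavage fluid of exposed mice, a cell count that these lung mRNA ratios do not measure. The 4 hepatocyte markers had higher means, by up to 0.87 for Alb, with a mean log2 ratio of 0.26 to 0.74 in control and 0.41 to 1.71 in exposed lungs. In liver no marker passed, and the macrophage mean ran from 0.13 to 0.83 in control and from 0.13 to 0.71 in exposed mice. The part of these cells in the members' values was not tested.

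The reference channel was examined alone. None of the 15 probes passed in Cy3 in either organ, with differences of -0.11 to 0.12 in lung, where 10 were lower, and of -0.02 to 0.09 in liver, where 12 were higher. In the Cy5 channel alone the 15 differences ran from -0.11 to 0.23 in lung and from -0.18 to 0.08 in liver.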

How the data were processed

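Lung and liver mRNA of 28 arrays was used, and 13 lung miRNA arrays were not. Each array held the RNA of 1 mouse, and groups came from the labels. The authors deposited unnormalized intensity values per spot, read with Feature Extraction 9.5.3.1 for lung and 10.1.1.1 for liver, and a series table of LOWESS-normalized log2 ratios. The columns of that table correlated with the ratios used here at 0.993 to 0.997 and had medians of -0.04 to -0.02. Nothing had been pooled.

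R 4.3.3, limma 3.58.1, statmod 1.5.0, the data.table package (1.17.8), jsonlite 2.0.0, Python 3.11.15 and matplotlib 3.10.9 were used. Median intensities of 45018 spots were corrected with normexp (offset 50), fitted per array and channel without the spots the software marked as outliers, and normalized by loess (span 0.3, 4 iterations) within each array. Control spots and marked spots were dropped, and replicate spots were averaged per probe. Fitted on all spots, the background mean in Cy5 fell to -609 on a lung array and -972 on a liver array, against -6.99 to -4.44 and -26.1 to -6.80 without the marked spots. No member spot was marked or saturated. Groups were compared with lmFit and eBayes over all probes, with Benjamini-Hochberg adjustment (called at 0.05), and a fold is 2 to the power of the fitted difference. Members also had an exact two-sided permutation test over all splits (1716 for lung, 6435 for liver, 3003 for control lung against control liver), and all fits were tested on simulated data. The number of arrays limits the precision.

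The naming rule took every member with every probe and, of each wider list, every called gene and the 2 highest and 2 lowest lung differences. The list genes called between control organs are given as counts instead, and those named there were chosen after their values were seen. The members and lists were chosen with earlier results of these data known. Mouse numbers pair lung and liver, since the methods took both from the same mice. Over 12 mice the deviations of the same mouse correlated at -0.07 to 0.21, and 4 exceeded 0.1. Of the wider lists' genes 5 were not matched to a gene name. Alternatives are listed in the closing section. Leaving out lung slides 3 and 4 was chosen after seeing the data.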

Additional observations from a re-analysis of the deposited data

Results flagged for a closer look

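In the exposed livers, Top2a of mouse 13 had a log2 ratio of -2.93, apart from the next highest at -3.61. In the control lungs, Cdc20 of mouse 24 had -3.52, apart from the next lowest at -2.999. Values this far from their group occurred in 2 of the 40 combinations of gene and group examined, and chance alone marks about 1 in 20. Mouse 24 also had the lowest lung value of 6 of the 10 genes. No member passed the test of a difference between the lung and liver effects.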

How the results depend on the processing

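No member probe was called in lung, liver or their difference under any alternative run: omitting background correction, normexp on all spots, processed signals of the scanner software, median centering, the authors' table, a filter for signal in 50% of a group's arrays (which removed Aurkb and Bub1 in liver), 1 value per gene name, slide as a block (fixed, random) or Cy5 by itself in each organ, mouse number as a block between organs, lung slides 3 and 4 omitted (chosen after seeing the data), and each array left out in turn. The member probes called between control organs were 10, 5 with normexp on all spots, and 9 to 11 with an array left out, where all probes called were 23069 to 24045. All lung probes called fell from 91 to 15 with normexp on all spots, 6 with median centering and 28 without lung slides 3 and 4, and were 71 to 92 with an array left out. Between the organs' effects they fell from 58 to 5, 12 and 30 in that order and to 35 with processed signals, and were 43 to 59 with an array left out. Lung minus liver effects with the replicate block, mouse as a random block, gave 63 probes and 0 members, and differences within each mouse gave 54 and 0. With mouse as a fixed block 11 member probes were called between control organs. Among the reported probes only the call of Ccnb1 changed (-0.26, adjusted p = 0.0136 from limma). That fit also left out control livers 37 and 45, which had no lung array. Without control liver 37 and without the block Ccnb1 was called too (-0.23, adjusted p = 0.0411 from limma). The change can therefore not be credited to the pairing.

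The median over the members was -0.48 in liver and 0.77 between the organs' effects with normexp on all spots, 0.12 between the organs' effects with median centering, and 0.20 between control organs with normexp on all spots.

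Directions turned as follows, and the cause was not tested. In lung Bub1 was 0.55 with normexp on all spots, and Top2a -0.0135 and Ccnb1 -0.0251 with 1 value per gene name, where probes near background enter. With an array left out Cdc20 ran from -0.021 (without control mouse 24) to 0.14. In liver, median centering gave Mki67 0.14, Top2a 0.0662, Ccna2 0.11, Ccnb1 0.061, Ccnb2 0.11, Birc5 0.13, Bub1 0.0036, Plk1 0.10 and Cdc20 0.0651. Processed signals gave Top2a 0.16 and Bub1 0.12, and the Cy5 channel gave Top2a 0.0823 and Bub1 0.0028. Between the organs' effects Bub1 was 1.45 with normexp on all spots, 0.0612 with the replicate block as differences within each mouse, and -0.11 to 0.0583 with an array left out. Between control organs normexp on all spots gave Top2a -0.16 and Bub1 -0.14, processed signals gave Aurkb 0.37, median centering Ccnb2 -0.0545 and leaving out lung slides 3 and 4 Aurkb 0.0258. Signals near background limit Aurkb and Bub1 in liver and the extra probes of Ccnb1 and Top2a.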
